A study of Mus musculus with 6 samples.

Results

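Cytosolic ribosomal proteins are the protein parts of the cell's main ribosome: the small subunit reads the mRNA and the large subunit joins amino acids. The set described here held the 89 genes, of 49671 in the deposited tables, whose mouse symbol is Rpl or Rps followed by a number (with the suffixes a, l, x and y), Rplp0, Rplp1, Rplp2 or Rpsa. Symbols of pseudogenes ending in -ps and the S6 kinases were left out. By name 36 members belong to the small and 53 to the large subunit. All 89 identifiers matched the GENCODE M21 annotation of mouse build mm10, which lists 84 as protein coding and 5 as pseudogenes of the same naming pattern (Rps4l, Rps12l1, Rpl6l, Rps3a2 and Rps3a3).

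RNA was measured in CD3+ T cells enriched on columns from the spleens of female F1 hybrid mice, with no later sort stated. Their mothers were C57BL/6 (here called mus) with an Xist deletion on 1 X chromosome, and their fathers were M. m. castaneus (cast). Both groups came from this cross, which the labels describe as a model of skewed X inactivation, so the controls share it; the age of the mice was not given. The 3 unstimulated samples were lysed on isolation (day 0), and the 3 stimulated samples were cultured for 48 hours with plate-bound anti-CD3 at 1 µg/ml and soluble anti-CD28 at 10 µg/ml (day 2). The study asked how T cell activation bears on the inactive X, and here the same libraries were read for the ribosomal protein genes, as total RPKM per gene and as counts of reads assigned to each parental allele. RPKM scales the reads of a gene to its length and to the total of its library, so levels can be compared between genes.

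Ribosomal protein mRNAs are among the most abundant in a cell, and in animals most of them begin with a run of pyrimidines (C and U), the terminal oligopyrimidine or TOP element. Larp1 binds this element and the kinase mTOR controls how well such mRNAs are translated, so that translation can change with no change in mRNA. A resting T cell holds few ribosomes and builds many after its receptor and CD28 are engaged. Total RNA libraries with rRNA removed, as here, measure mRNA level, not translation.

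The start windows below are shown because the pyrimidine run is the sequence feature this gene family is best known for. Each holds the 10 bases before and the 20 bases from the RefSeq start site (build GRCm38.p6), on the gene's strand, 5′ to 3′, with the longest pyrimidine run in capitals; 64 members had an entry in the RefSeq promoter table.
Rps27, chr3:90213629-90213658, minus strand: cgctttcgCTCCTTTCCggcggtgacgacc
Rps27l, chr9:66946076-66946105, plus strand: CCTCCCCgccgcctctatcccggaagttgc
Rps26, chr10:128626487-128626516, minus strand: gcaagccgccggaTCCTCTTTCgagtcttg
Rps24, chr14:24490668-24490697, plus strand: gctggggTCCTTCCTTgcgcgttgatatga
Rps2, chr17:24720053-24720082, plus strand: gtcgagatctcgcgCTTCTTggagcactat
Rpl41, chr10:128549149-128549178, minus strand: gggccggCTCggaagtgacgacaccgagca
Rpl13a, chr7:45128726-45128755, minus strand: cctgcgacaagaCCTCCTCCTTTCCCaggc
Rpl7a, chr2:26910797-26910826, plus strand: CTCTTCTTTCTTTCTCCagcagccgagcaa
Rpl22l1, chr3:28805498-28805527, plus strand: gcgcaagcccgTTCTCTTCCCacggctgca
A run of at least 8 pyrimidines lay in this window in 21 of 64 members (32.8%), against 11.2% of the 27025 genes in the promoter table. On the other strand the shares were 3.12% of members and 13.1% of all genes. The letters CCGGAAG, an ETS-type motif searched on both strands of the whole promoter entry, were found in 25 members (39.1%) and in 9.12% of all genes. AAGATGGC, the core of the YY1 motif, was found in 5 members (7.81%) and in 2.88% of all genes, and TATAAA in 6 members (9.38%) and in 14.2%. Windows with long runs belonged to members that moved either way. Among the 21 members with a run of at least 8 bases, 12 rose and 3 fell after stimulation (median log2 fold change 0.31). Among 40 tested members with a shorter run 19 rose and 2 fell (median 0.17). Across all genes tested 31.2% rose and 48.9% fell (median -0.24). A matched run is a description of these letters and not a tested TOP element.

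The libraries held between 9606755 and 20249376 allele-assigned reads, and the 3 stimulated libraries were the deepest. All 8 T cell markers checked were detected in every library, with a summed level of 604 to 768 RPKM in unstimulated and 485 to 539 RPKM in stimulated samples. Markers of other cells were also present in the unstimulated samples. The 5 myeloid markers summed to 1082 to 3272 RPKM before and 2.46 to 4.20 RPKM after stimulation, where 2 of them were at 0 in 1 library, the 4 B cell markers to 88.9 to 171 and 7.80 to 15.02, the 3 NK cell markers to 192 to 281 and 4.27 to 8.15, and the 5 erythroid markers to 77.2 to 1300 and 1.504 to 12.4. The 4 cell cycle markers summed to 15.3, 16.8 and 73.9 RPKM in unstimulated and 242 to 255 RPKM in stimulated samples. Unstimulated replicate 3 thus stood apart in its cell cycle and myeloid sums. The part of these shifts in the results below was not tested, and in bulk RNA a smaller share of cells of a type cannot be told from less RNA per cell.

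Stimulated samples held a larger share of ribosomal protein RNA among all RPKM and among allele-assigned reads, but not among protein-coding RPKM. Members made up 8.33%, 8.59% and 7.85% of all RPKM in the 3 unstimulated and 8.87%, 9.12% and 9.22% in the 3 stimulated libraries, which did not overlap. The means were 8.26% ± 0.38 and 9.07% ± 0.18 (SD, n = 3), a difference of 0.81 percentage points, which was 0.51 without the 5 highest members. As a share of protein-coding RPKM alone the groups overlapped, at 14.1%, 14.2% and 12.1% unstimulated and 13.2%, 13.2% and 13.4% stimulated. Among allele-assigned reads the share was 3.84%, 3.86% and 3.40% before and 5.35%, 5.31% and 5.31% after stimulation. Whether the share differed between the groups therefore depended on the total it was taken from.

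Summed over the 53 large subunit members, RPKM was 14110 ± 706 in unstimulated and 17400 ± 50.3 in stimulated samples (SD, n = 3). Over the 36 small subunit members it was 13710 ± 821 and 14150 ± 226. The ratio of the sums, large over small, was 1.07, 1.01 and 1.01 in unstimulated libraries and 1.24, 1.24 and 1.21 in stimulated ones. Every stimulated library lay above every unstimulated one in this ratio, which does not depend on how a library was scaled.

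**Figure D1:**
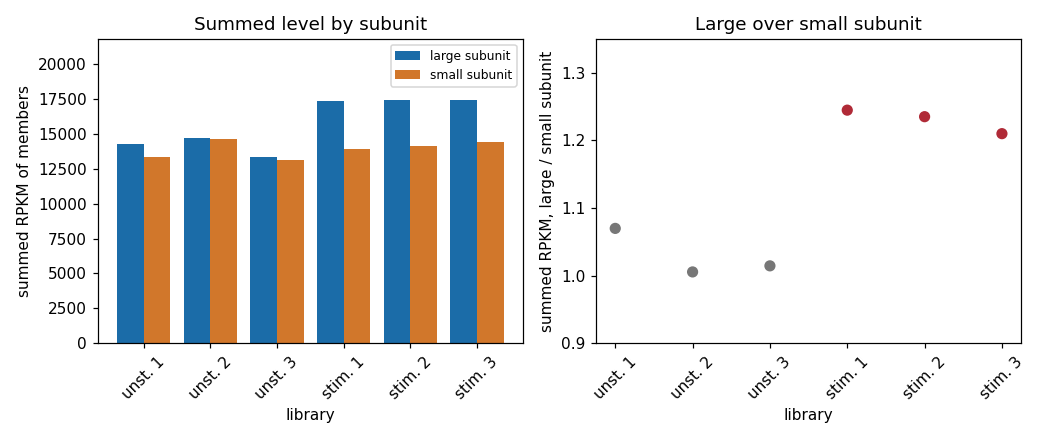
Left, summed RPKM of large (blue) and small (orange) subunit members in each of the 6 libraries; right, the ratio of the 2 sums, with unstimulated libraries in grey and stimulated ones in red. The small subunit sums overlap between groups, while the ratio is 1.01 to 1.07 in unstimulated and 1.21 to 1.24 in stimulated libraries.

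Gene by gene, 39 members rose after stimulation, 8 fell and 38 did not pass limma's test, out of 85 that reached at least 1 RPKM in at least 3 libraries. Across all 13288 genes tested 31.2% rose and 48.9% fell, so that 80.1% passed in either direction, against 47 of 85 members. The median log2 fold change, computed on log2(RPKM + 1), was 0.17 over the members and -0.24 over all genes tested. All 3 stimulated libraries lay above all 3 unstimulated ones in 44 members (32.7% of all genes) and below in 15 (50.7% of all genes). A change of at least 2-fold was rare: 5 members rose and 1 fell by that much.

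The counts depended on scaling, which moved the median of all genes. Median centring, which brought the median of all genes to 0.02, gave 59 members higher and 3 lower (40.9% and 39.2% of all genes). Quantile normalisation gave 23 higher and 26 lower (40.6% and 36.7% of all genes), with a median of -0.04 over the members and 0.04 over all genes. On the summed allele-assigned reads, in 78 members, edgeR with TMM scaling gave 55 higher and 5 lower (35.8% and 38.5% of all genes), and DESeq2 gave 52 and 5 (34.7% and 38.2%). Under both median centring and quantile normalisation, 22 of the 39 rises kept their call, 18 of them in the large subunit. Rps27 and Rps29 kept theirs among the 8 falls.

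Large subunit members had the higher median in each of the 18 settings tried. Of 50 large subunit members tested 29 rose, 2 fell and 19 did not pass, with a median of 0.32. Of 35 small subunit members 10 rose, 6 fell and 19 did not pass, with a median of 0.07. No test of the difference between the subunits was made.

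**Figure D2:**
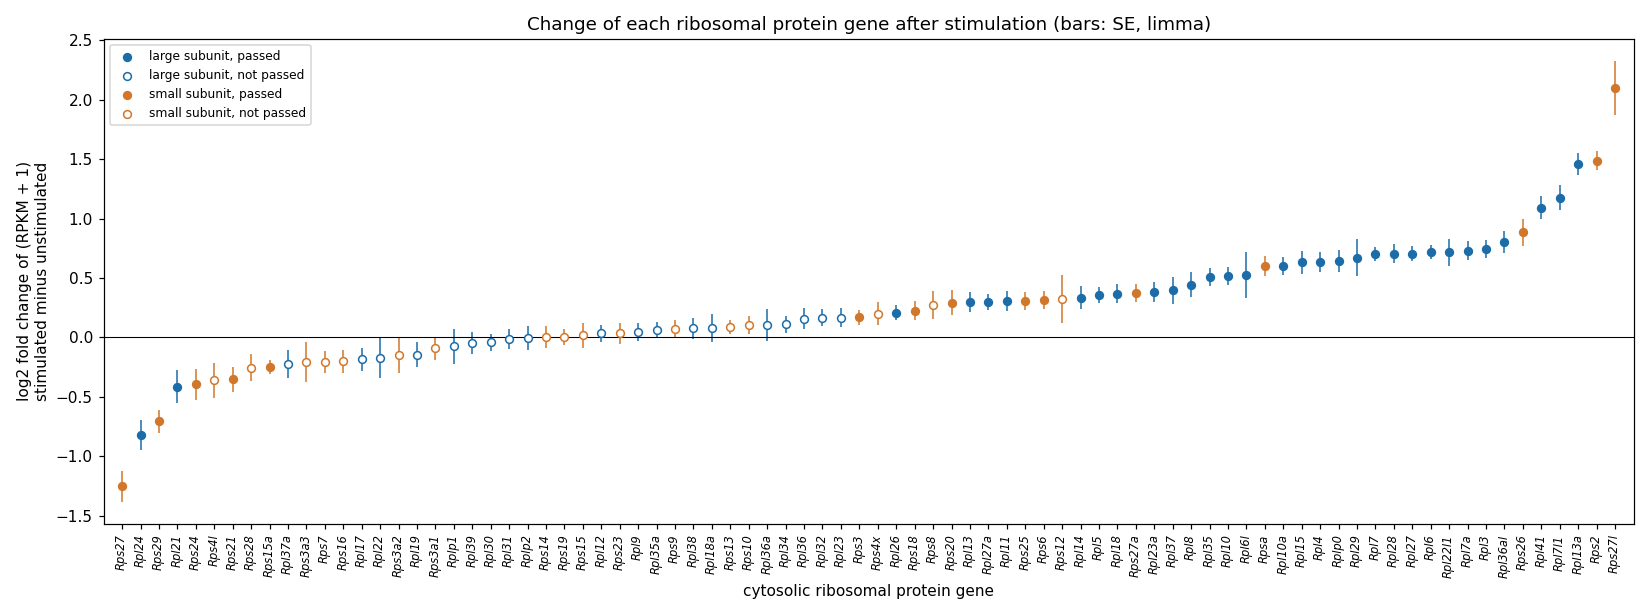
The log2 fold change of RPKM + 1, stimulated minus unstimulated, of 82 of the 85 members tested (points, with limma's standard error as bars), in order of size; blue is the large and orange the small subunit, and filled points passed an adjusted p of 0.05. Blue filled points crowd the right, and the ends are Rps27 at -1.25 and Rps27l at 2.10.

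The largest fall and the largest rise belonged to a pair of related genes, Rps27 and Rps27l. Both encode versions of the same zinc-binding small subunit protein, and Rps27l is known as a target gene of p53. Their coding sequences are each 252 bases long and 76.2% identical. The first 90 coding bases are shown to let the pair be compared, with the 24 differing bases in capitals (GENCODE M21, coding positions 1 to 90).
Rps27: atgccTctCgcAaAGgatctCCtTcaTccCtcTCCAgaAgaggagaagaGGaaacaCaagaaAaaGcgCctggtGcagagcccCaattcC
Rps27l: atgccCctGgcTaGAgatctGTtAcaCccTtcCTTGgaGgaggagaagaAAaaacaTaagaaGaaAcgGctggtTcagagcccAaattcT
Rps27 (ENSMUSG00000090733, chr3:90212522-90213651, minus strand) stood at 555, 773 and 631 RPKM in unstimulated and 261, 269 and 284 RPKM in stimulated libraries. Every stimulated value was below every unstimulated one, and the log2 fold change was -1.25 (SE 0.13, limma adjusted p = 0.000128). Rps27l (ENSMUSG00000036781, chr9:66946086-66949516, plus strand) stood at 18.8, 19.3 and 34.9 RPKM before and 109, 102 and 99.1 RPKM after stimulation. The highest unstimulated value was that of replicate 3, and the groups did not overlap. Replicate 3 was also the unstimulated library with the most cell cycle RNA, whose part in the level of Rps27l was not tested. Rps27l rose by 2.10 on the log2 scale (SE 0.23, limma adjusted p = 0.000152). The canonical gene stayed the higher of the pair in RPKM in all 6 libraries.

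In 2 other pairs the canonical gene did not pass the test while the paralog rose. Rpl22, a large subunit protein that mice need for development of alpha-beta T cells, stood at 27.6, 44.3 and 40.1 RPKM unstimulated and 32.3, 31.1 and 33.8 stimulated. These overlapped, and the change of -0.17 did not pass (limma adjusted p = 0.368), but without unstimulated replicate 1 it did (-0.37, limma adjusted p = 0.00480). On allele-assigned reads Rpl22 passed in the other direction, at 0.40 with edgeR TMM (adjusted p = 0.0260) and 0.37 with DESeq2 (adjusted p = 0.0181). Its paralog Rpl22l1 stood at 37.3, 42.3 and 44.4 RPKM before and 76.1, 71.0 and 59.1 after, without overlap, a log2 fold change of 0.72 (SE 0.11, limma adjusted p = 0.000891). The allele-assigned reads of Rpl22l1 went the other way, from 591 reads over 3 unstimulated to 276 over 3 stimulated libraries (log2 fold change -1.53 with edgeR TMM), so its rise holds for RPKM only. An annotated gene overlaps Rpl22l1 on the opposite strand, and whether the counting used strand is not given in the sources used here.

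Rpl36a, on the X, and its autosomal paralog Rpl36al encode nearly the same protein of the tRNA exit site, and their coding sequences are 87.7% identical. They differ at 14 of the first 90 coding bases, in capitals.
Rpl36a: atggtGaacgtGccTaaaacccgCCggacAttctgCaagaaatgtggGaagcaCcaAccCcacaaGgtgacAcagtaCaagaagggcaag
Rpl36al: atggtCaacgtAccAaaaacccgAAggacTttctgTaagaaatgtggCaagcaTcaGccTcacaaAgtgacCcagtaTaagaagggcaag
Rpl36a stood at 46.4, 64.5 and 59.6 RPKM unstimulated and 55.5, 61.0 and 65.9 stimulated, which overlapped (log2 fold change 0.11, limma adjusted p = 0.480). Rpl36al stood at 31.9, 40.2 and 34.4 RPKM before and 66.2, 60.02 and 61.1 after stimulation, with no overlap (log2 fold change 0.80, SE 0.09, limma adjusted p = 0.000223). With median centring Rpl36a passed (0.37, limma adjusted p = 0.0266), and on its 208 and 379 allele-assigned reads Rpl36al did not (0.44 with edgeR TMM, adjusted p = 0.235). After stimulation the levels of Rpl36a and Rpl36al overlapped, at 60.8 ± 5.2 and 62.4 ± 3.3 RPKM (SD, n = 3).

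In the Rpl7 pair both genes rose. Rpl7 stood at 179, 193 and 188 RPKM before and 308, 299 and 304 after (log2 fold change 0.70, SE 0.06, limma adjusted p = 5.83e-05). Rpl7l1, whose product takes part in assembly of the large subunit, stood at 13.3, 11.5 and 14.9 RPKM and then 32.1, 32.8 and 28.1 (log2 fold change 1.17, SE 0.11, limma adjusted p = 6.44e-05). Their coding sequences are 53.0% identical, the least alike of the 7 pairs compared.

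**Figure D3:**
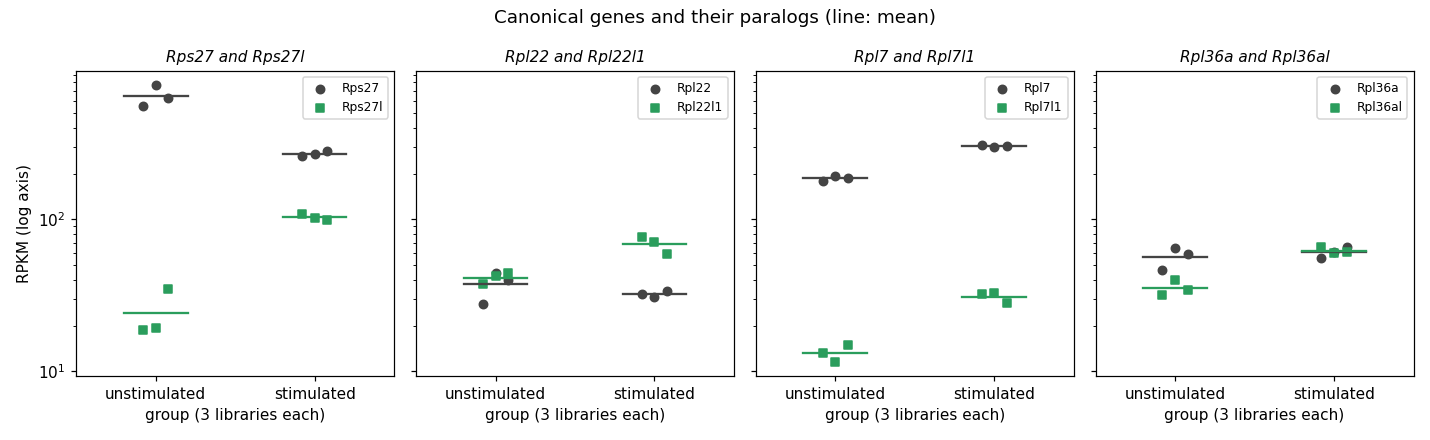
RPKM on a log axis of 4 canonical genes (circles) and their paralogs (squares) in the 3 unstimulated and 3 stimulated libraries, with group means as lines. Rps27 falls as Rps27l rises; Rpl22 overlaps between groups and Rpl22l1 is higher after stimulation; both Rpl7 genes are higher; Rpl36al reaches the level of Rpl36a.

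The paralogs known for muscle or testis were near 0. Rpl3l, the muscle form of Rpl3, stood at 0.167, 0.167 and 0.243 RPKM unstimulated and at 0, 0.022 and 0.020 stimulated, below the minimum for the test. Rpl10l and Rpl39l, known from testis, were at 0 in every library. Their canonical partners were abundant. Rpl3, a protein close to the peptidyl transferase centre, rose from 301 ± 16.7 to 506 ± 2.9 RPKM (SD, n = 3; log2 fold change 0.75, limma adjusted p = 0.000101), while Rpl39, in the peptide exit tunnel, had 383 ± 37.3 and 371 ± 12.3 RPKM (log2 fold change -0.04, limma adjusted p = 0.679). With quantile normalisation Rpl39 passed as lower (-0.50, limma adjusted p = 0.000360), and with median centring it was at 0.22 and did not pass.

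Members annotated as pseudogenes were low, apart from Rps3a2. Rps12l1 was at 0 in 5 libraries and at 0.441 RPKM in the other and was not tested. Rps4l had 1.23 ± 0.19 and 0.755 ± 0.29 RPKM (SD, n = 3; log2 fold change -0.36, limma adjusted p = 0.0588). It passed as lower with the replicate number as a block (-0.36, limma adjusted p = 0.0319) and as higher with quantile normalisation (0.37, limma adjusted p = 0.0283). Rps4l reached the minimum level only through the unstimulated samples, as every stimulated value lay below that level. A filter met in this way favours a fall, so the call with the block cannot show whether Rps4l fell. Rpl6l passed at 0.53 (limma adjusted p = 0.0425), but it reached the minimum level only through the stimulated samples and 1 unstimulated one, at 0.275, 1.02 and 0.225 RPKM before and 1.16, 1.06 and 1.11 after. Its call was lost with no filter, with the replicate block and without any 1 library other than unstimulated replicate 2 (0.40 to 0.54). Rps3a2 had 27.3 ± 5.2 and 24.3 ± 2.6 RPKM and Rps3a3 3.52 ± 0.86 and 2.88 ± 0.49, beside 862 ± 64.0 and 808 ± 2.8 RPKM for Rps3a1, and none of the 3 passed (log2 fold changes -0.15, -0.21 and -0.09). On allele-assigned reads Rps3a1 passed as higher, at 0.33 with edgeR TMM (adjusted p = 0.00523) and 0.30 with DESeq2 (adjusted p = 0.00265). The canonical Rpl6 rose (0.72, limma adjusted p = 4.07e-05), and Rps12 had 540 ± 137 and 660 ± 47.6 RPKM (0.32, limma adjusted p = 0.180). Rps12 passed with median centring (0.58, limma adjusted p = 0.0252) and on allele-assigned reads (0.73 with edgeR TMM, adjusted p = 0.00258).

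Among the other large rises, Rps2, a protein near the entry of the mRNA channel (chr17:24718116-24721929, plus strand), stood at 189, 203 and 209 RPKM before and 532, 564 and 596 after stimulation. The log2 fold change was 1.49 (SE 0.08, limma adjusted p = 7.20e-06) and 1.55 when the RPKM of its 20 near-identical copies was added. Rpl41, the shortest ribosomal protein, stood at 401, 338 and 347 RPKM and then 738, 767 and 808 (1.09, SE 0.10, limma adjusted p = 6.19e-05). Rps26, at the mRNA exit of the small subunit, stood at 656, 704 and 724 RPKM and then 1164, 1279 and 1417 (0.89, SE 0.11, limma adjusted p = 0.000356). In each of these 3 genes all stimulated libraries lay above all unstimulated ones.

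For 2 members the change turned when near-identical copies were counted with them. Ribosomal protein genes have many processed copies in the genome, and 77 members had at least 1 annotated gene at 95% identity or more over at least 80% of the coding sequence (487 copies in all). How reads that match several places were counted is not given in the sources used here. Rpl13a stood at 12.2, 13.1 and 15.6 RPKM before and 38.6, 37.9 and 40.3 after stimulation, a log2 fold change of 1.46 (SE 0.09, limma adjusted p = 1.36e-05). Its 3 copies held 818 ± 98.6 and 773 ± 41.1 RPKM, and with them the change was -0.03 (limma adjusted p = 0.820). Rpl24, a protein that joins the large subunit late, stood at 4.68, 4.19 and 4.20 RPKM and then 2.65, 1.81 and 1.72, a log2 fold change of -0.82 (SE 0.13, limma adjusted p = 0.000970). With its 4 copies, at 4.25 ± 0.24 and 9.12 ± 1.7 RPKM, the change was 0.33 (limma adjusted p = 0.0491), and with quantile normalisation Rpl24 alone did not pass (-0.36, limma adjusted p = 0.0630). Their changes thus describe the rows for these 2 loci and not all RNA of these sequences. Added over all members, the copies kept 38 of the 39 rises and 7 of the 8 falls.

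Small subunit genes made up 6 of the 8 falls. Rps29, a zinc-binding protein of the subunit head (chr12:69157722-69159186, minus strand), stood at 1036, 1059 and 923 RPKM before and 604, 612 and 634 after stimulation, without overlap (-0.70, SE 0.10, limma adjusted p = 0.000492). Its fall was smaller with median centring (-0.44) and on allele-assigned reads (-0.28 with edgeR TMM) and passed in both. Rps24 stood at 820, 1049 and 913 RPKM and then 643, 704 and 766 (-0.39, SE 0.13, limma adjusted p = 0.0265). Rps21 stood at 375, 396 and 313 RPKM and then 296, 275 and 274 (-0.35, SE 0.10, limma adjusted p = 0.0178). The groups did not overlap in these genes, but Rps24 and Rps21 turned to 0.06 and 0.07 with edgeR TMM on allele-assigned reads and did not pass with median centring (-0.13 and -0.09). Rps24 lost its call without unstimulated replicate 2 (-0.30) or stimulated replicate 1 (-0.33) or 2 (-0.39), and Rps21 without unstimulated replicate 2 (-0.28) or stimulated replicate 2 or 3 (-0.33 each). Rpl21, of the large subunit and with 49 copies the member with the most, had 80.2 ± 15.8 and 59.2 ± 1.6 RPKM (SD, n = 3; -0.41, limma adjusted p = 0.0291), and its call was lost without any 1 library other than unstimulated replicate 1 (-0.28 to -0.43) and with median centring (-0.15). Rps15a had a smaller fall (-0.25).

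Of the 5 members with the highest mean RPKM, Rplp0, Rpl8 and Rps26 rose, and Rplp1 and Rps15 did not pass. Rplp1, a protein of the P stalk that recruits elongation factors, had the highest level, at 2215, 2175 and 1799 RPKM unstimulated and 2011, 1984 and 1860 stimulated. These overlapped (-0.07, limma adjusted p = 0.653), while on allele-assigned reads Rplp1 passed as higher (0.46 with edgeR TMM, adjusted p = 0.00301). Its stalk partner Rplp2 stood at 269, 250 and 225 RPKM and then 269, 246 and 228 (0.00, limma adjusted p = 0.970), and passed as lower with quantile normalisation (-0.39, limma adjusted p = 0.0326) and on allele-assigned reads (-0.57 with edgeR TMM, adjusted p = 0.00529). Rplp0, the base of the stalk, rose, at 742, 745 and 699 RPKM and then 1138, 1154 and 1124 (0.64, SE 0.09, limma adjusted p = 0.000546). Rpl8 rose from 891 ± 65.1 to 1212 ± 32.9 RPKM (SD, n = 3; 0.45, limma adjusted p = 0.00670), a call lost with no filter (adjusted p = 0.0515). Rps15, needed for export of the small subunit from the nucleus, had 846 ± 65.6 and 855 ± 36.8 RPKM (0.02, limma adjusted p = 0.886), and passed as higher on allele-assigned reads (0.57 with edgeR TMM, adjusted p = 0.000326).

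Rpl5 and Rpl11, which form a particle with the 5S rRNA and in free form bind the p53 inhibitor Mdm2, both rose. Rpl5 stood at 183, 191 and 170 RPKM before and 223, 236 and 239 after (0.36, limma adjusted p = 0.00284). Rpl11 stood at 96.7, 114 and 97.6 RPKM and then 123, 124 and 134 (0.31, limma adjusted p = 0.0127). Rps27a, made as a fusion with ubiquitin, rose from 189 ± 14.0 to 245 ± 9.5 RPKM (SD, n = 3; 0.38, limma adjusted p = 0.00328). The groups did not overlap in Rpl5 or Rpl11. With quantile normalisation none of the 3 passed, at 0.04 in Rpl5 (limma adjusted p = 0.763), 0.15 in Rpl11 (0.148) and 0.02 in Rps27a (0.848). On allele-assigned reads Rps27a did not pass with edgeR TMM (0.28, adjusted p = 0.166), nor Rpl11 with library sizes alone (0.28, adjusted p = 0.0671).

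Other genes of ribosome production were read from the same fit, in which 31.2% of all genes rose and 48.9% fell. Of 27 TOP mRNAs and ribosome partners that are no members, 21 passed as higher and 3 as lower, and their median change was 0.59 on the log2 scale. Npm1, a nucleolar assembly chaperone, rose by 1.85 and Nap1l1, a histone chaperone, by 1.40. Tpt1, a classical TOP mRNA, fell from 1178 ± 48.4 to 607 ± 12.7 RPKM (-0.95), and the snoRNA host Snhg8 changed by -0.84. Of 19 ribosomal protein chaperones and assembly factors 13 rose and 3 fell, with a median of 0.73. The largest rises were Eif6 (1.59), which keeps the large subunit from joining too early, and Bop1 (1.19), and the falls were led by Tsr2 (-0.45), the chaperone of Rps26, and Sbds (-0.32), which helps to release Eif6.

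Among 15 regulators of ribosomal protein mRNA, of which Rps6 is itself a member, 6 rose and 7 fell (median -0.08). Eif4ebp1, a translation repressor that mTOR inactivates, rose by 2.85 and Myc, a transcription factor that drives ribosome production, by 1.82. The falls were led by Tsc1 (-0.97), of the complex that holds mTOR back, and Rptor (-0.90), a subunit of mTOR complex 1. The rows with a mitochondrial ribosomal protein name numbered 83, and pseudogene rows were not left out of them. Of these rows 79 were tested, of which 74 rose and 1 fell, with a median of 0.88. The pseudogene rows Mrpl48-ps (1.49, passed) and Mrpl23-ps1 (0.44, not passed) were among those tested. Across all genes tested 31.2% rose and 48.9% fell. No test set these lists against the members.

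Reads assigned to the parental alleles gave a second readout that RPKM does not hold. The hybrid mice carry 1 mus and 1 cast copy of each autosome, and the cast share is the percentage of a gene's allele-assigned reads that came from cast; over all autosomes it was 49.3% to 49.4% in every library. Of the 85 autosomal members 75 had at least 30 such reads in each group and were tested with edgeR. Rpl30, Rpl31 and Rpl39 were among 10 members with no allele-assigned read. The median cast share over the 75 was 51.4% in unstimulated and 51.2% in stimulated samples, and 46 of them (61.3%) lay between 40% and 60% in both groups, against 62.7% of all autosomal genes tested.

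In unstimulated samples 51 of 75 members differed between the alleles, 22 with less and 29 with more cast (30.2% of the 12471 autosomal genes tested passed). In stimulated samples it was 50, with 23 lower and 27 higher (35.5% of all). The same 43 members passed in both groups and in the same direction. Members are far deeper than most genes, with a median of 35303 allele-assigned reads over the 6 libraries against 2635 for all autosomal genes tested, and the part of this depth in the larger share of calls was not tested.

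A few members came largely from 1 allele. Rps6, the target of the S6 kinases, had a cast share of 88.4%, 87.1% and 87.6% in unstimulated and 90.3%, 90.7% and 90.01% in stimulated libraries. Rpl23a, at the exit of the peptide tunnel, stayed at 82.7% ± 0.82 and 82.7% ± 0.94 (SD, n = 3), and Rpl9 had 65.5% ± 1.8 and 66.9% ± 0.98. At the other end, Rpl29 had 14.8% ± 5.5 and 17.3% ± 3.4, from only 588 and 2438 reads. Rpl14 had 22.3% ± 1.0 and 20.3% ± 0.92, Rpl35a 22.4% ± 0.83 and 22.1% ± 0.63, and Rps19, a gene mutated in Diamond-Blackfan anaemia, 23.7% ± 1.1 and 25.3% ± 0.60. In the 6 members named here beside Rps6 the shares of both groups overlapped. The part of near-identical copies elsewhere in the genome in these shares was not tested.

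The cast share changed after stimulation in 19 of the 75 members, against 10.4% of all autosomal genes tested. The part of the members' greater read depth in this number of calls was not tested. The share rose in 11 members (5.73% of all autosomal genes) and fell in 8. With DESeq2 17 of the 19 kept the call, with the replicate number as a block all 19, and without each library in turn 10. The shifts were mostly small. Rpl19 went from 79.3%, 79.5% and 81.1% to 85.9%, 86.0% and 87.5% (log2 of cast over mus 0.68 higher, edgeR adjusted p = 3.45e-05). Rps6 gained 2.6 percentage points (log2 ratio 0.39, edgeR adjusted p = 0.000485). Rpsa, whose protein is also a laminin receptor, had 46.5%, 45.8% and 45.9% before and 49.6%, 49.9% and 48.6% after, from 91328 and 263813 reads (log2 ratio 0.19, edgeR adjusted p = 0.000721). These 3 genes had no overlap between groups.

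Rpl7a moved to mus, at 55.0%, 56.0% and 55.5% and then 52.0%, 51.2% and 50.2% (log2 ratio -0.25, edgeR adjusted p = 0.000866). Rpl3 moved to cast, at 51.6%, 52.3% and 53.5% and then 56.4%, 56.3% and 56.4% (0.23, edgeR adjusted p = 0.000942). Rpl11 had the largest shift, at 48.0%, 45.6% and 44.9% and then 57.7%, 67.2% and 63.4% (0.98, edgeR adjusted p = 0.00125), on 1445 and 2832 reads. Here too no stimulated library overlapped the unstimulated ones. Rps27 and Rps27l, the pair with the largest changes in level, did not pass in cast share (log2 ratios -0.22 and 0.11).

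**Figure D4:**
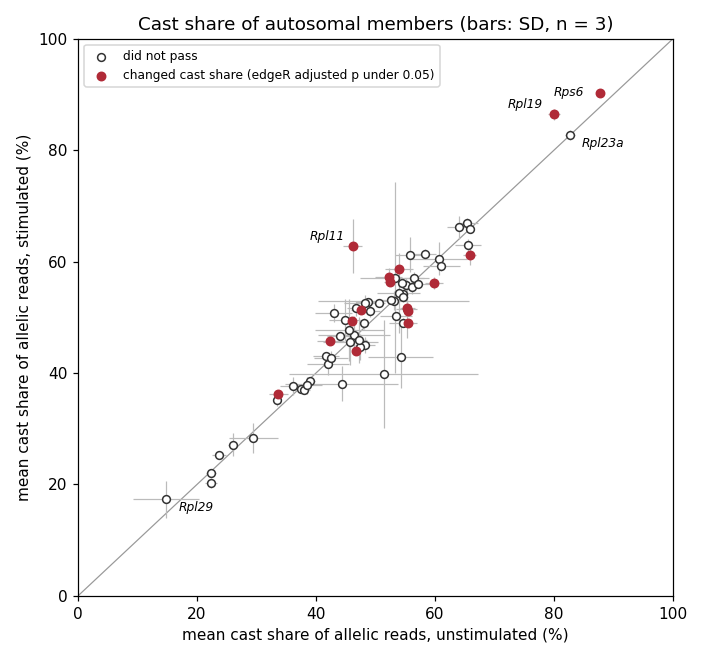
Mean cast share of allele-assigned reads in unstimulated (x axis) and stimulated (y axis) samples for 72 of the 75 autosomal members tested, with SD over 3 libraries as bars; filled red points changed their share by edgeR's test and the grey line marks equal shares. Most points lie near the line, with Rpl11 at 46.2% and 62.8% the farthest above it among those that passed.

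The 4 X-linked members were read apart, because in this cross the cast X is the inactive one. Among 363 X-linked genes tested, 97.2% in unstimulated and 97.0% in stimulated samples differed between alleles, and 3.03% changed their cast share. Rps4x had 2, 4 and 6 cast reads of 19179, 15534 and 16382 in unstimulated libraries, and 4, 12 and 32 of 31573, 37536 and 38033 in stimulated ones. The cast share ranged from 0.0104% (95% exact binomial interval 0.00126% to 0.0377%) to 0.0841% (0.0576% to 0.119%); such intervals cover counting error only. In total level Rps4x had 741 ± 44.8 and 852 ± 38.5 RPKM (SD, n = 3; log2 fold change 0.20, limma adjusted p = 0.0931). It passed as higher with median centring (0.46, limma adjusted p = 0.0144), with limma without trend (0.20, adjusted p = 0.0449) and on allele-assigned reads (0.64 with edgeR TMM, adjusted p = 0.000152).

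Rpl10, which joins the large subunit late and is needed for its activation, had a cast share of 0.223%, 0.529% and 2.09% before and 1.23%, 1.69% and 0.871% after, which overlapped. Its level rose from 344 ± 16.9 to 492 ± 3.6 RPKM (SD, n = 3; 0.52, limma adjusted p = 0.000554). This call was lost with quantile normalisation (0.08, limma adjusted p = 0.344) and with edgeR library sizes alone (0.06, adjusted p = 0.611). Rpl36a had few allele-assigned reads, 11, 5 and 1 before and 13, 16 and 8 after, and all were cast. Exact binomial intervals of its cast share, at the level used for Rps4x, were wide. They ran from 2.5% to 100% in the library with 1 read and from 79.4% to 100% in that with 16. Rpl36a was below the minimum for the test. It has 5 near-identical copies, whose part in these reads was not tested, and the rule for assigning reads to alleles is not given. These reads therefore cannot show whether Rpl36a was expressed from the inactive X. Rpl39 had no allele-assigned read.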

How the data were processed

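Total RNA libraries, rRNA-depleted and stranded per the labels' protocols, were made from 3 unstimulated and 3 stimulated samples, labelled as biological replicates. Reads were processed with STAR 2.7.1a and featureCounts on build mm10, per the submitters' processing notes; the strand setting, the treatment of reads matching several places, the total behind RPKM and the rule for assigning reads to alleles are in none of the labels, headers or notes. The authors deposited RPKM per gene, and counts of reads per allele and gene (0 columns were unmapped). RPKM is not a count, so log2(RPKM + 1) was tested with limma 3.58.1 (R 4.3.3; eBayes with trend, two-sided) in the 13288 genes with at least 1 RPKM in at least 3 libraries. Allelic counts were tested with edgeR 4.0.16 (quasi-likelihood, 1 term per library, an allele term per group, their difference for a changed share) in genes with at least 30 allelic reads in each group, autosomal and X-linked genes apart. P-values were adjusted by Benjamini-Hochberg over all genes of a fit, at a threshold of 0.05, and measure the spread between these samples. The scripts were tested on simulated data. In allele ratios, same-numbered samples deviated together (correlations 0.282, 0.298 and 0.182 over 9043 genes with at least 50 reads, a description across genes), so the numbers pair them there. Near-identical copies were found with blastn 2.17.0 in GENCODE M21 transcripts; start windows are RefSeq's. Alternatives used DESeq2 1.42.0, other scalings, filters and pseudocounts, and single libraries left out. Named members are the 6 largest rises and falls, the 5 highest levels, paralogs and their partners, X-linked members, stalk, 5S and ubiquitin-fusion genes, the 6 smallest p-values of a changed cast share, the 4 highest and 4 lowest cast shares and the members below the filter. The members and lists were chosen with earlier results of these data known. Values of 3 members are not reported here, in the text or the plots.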

Additional observations from a re-analysis of the deposited data

Results flagged for a closer look

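In 19 autosomal members the cast share differed between unstimulated and stimulated samples by the test of the difference itself (edgeR, adjusted over all autosomal genes). On the log2 scale of cast over mus, stimulated minus unstimulated, cast gained, among others, in Rpl11 (0.98), Rpl19 (0.68), Rps6 (0.39), Rpl27 (0.29), Rpl7 (0.28), Rpl3 (0.23), Rps20 (0.22), Rps3 (0.20), Rpsa (0.19) and Rps2 (0.17). Cast lost, among others, in Rplp1 (-0.38), Rpl38 (-0.29), Rpl7a (-0.25), Rpl27a (-0.22), Rps29 (-0.22) and Rps18 (-0.16). At an unadjusted edgeR p under 0.05 there were 29 such members, a threshold at which no share of all autosomal genes is given here. In all autosomal genes 10.4% passed the adjusted threshold. Unstimulated samples also held RNA of other cell types, and its part in these shifts was not tested. Nor was the part of the members' greater read depth in the number of calls.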

How the results depend on the processing

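Members called higher numbered 39, and 59 with median centring, 23 with quantile normalisation, 55 with edgeR TMM and 52 with DESeq2 on allele-summed counts of 78 members, and 32 to 41 without single libraries. Members called lower numbered 8, and 3 with median centring, 26 with quantile normalisation, 5 with edgeR TMM and 5 with DESeq2 on allele-summed counts, and 5 to 12 without single libraries. The low of 5 came without unstimulated replicate 2 or stimulated replicate 2, and the high without unstimulated replicate 3. The median log2 fold change of 0.17 was 0.43 with median centring, 0.57 with edgeR TMM, 0.32 with edgeR library sizes alone, 0.54 with DESeq2, -0.04 with quantile normalisation and 0.15 to 0.23 without single libraries. The summed share rose by 0.813 points, and by 0.51 without the 5 highest members. The causes were not tested.

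With the replicate block the diploid counts were 38 higher and 9 lower. The median over all genes was -0.24 with the block and -0.28 to -0.04 without single libraries. No share of all genes is given for the diploid counts in these fits, so they are not read against it. The same-number correlations in RPKM were 0.00603, 0.0611 and 0.0908, so same-numbered samples hardly deviated together in this measure. Such low values cannot show that the samples are unpaired. With the block 24 members changed cast share (13.2% of all autosomal genes). Without single libraries 13 to 17 did, while alleles differed in 46 to 51 members unstimulated and 46 to 50 stimulated. No share of all autosomal genes is given for these ranges, so they are not read against it.

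Single members reversed as follows, and the reversed values passed except in Rps21, Rps24, Rps6 and Rpl13a. With edgeR TMM and DESeq2 in turn, log2 fold changes were 0.07 and 0.05 in Rps21, 0.06 and 0.03 in Rps24, 0.33 and 0.30 in Rps3a1, 0.40 and 0.37 in Rpl22, 0.46 and 0.43 in Rplp1, 0.45 and 0.42 in Rpl19, and -1.53 and -1.56 in Rpl22l1 (-1.78 with library sizes alone). With quantile normalisation they were -0.07 in Rps6, -0.27 in Rpl9 and 0.37 in Rps4l. Adding the RPKM of near-identical copies, an alternative chosen after seeing the data, gave -0.03 in Rpl13a and 0.33 in Rpl24. Over 52 single results and 820 comparisons, 720 kept their side of the threshold, 23 of them with another sign and no call in either fit, 45 lost a call, 35 gained one and 20 reversed.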

Other observations

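Members with a longer coding sequence tended to have the higher signed log2 fold change. Over 81 coding members tested, the log2 fold change had a Spearman rho of 0.35 with the length of the coding sequence, 0.38 over 49 large and 0.31 over 32 small subunit members. The median change was 0.11 in members with a coding sequence under 453 bases and 0.31 in the rest. With the unstimulated level rho was -0.16. These are descriptions across genes, which share libraries and RNA and are not independent replicates.

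Rows named as ribosomal protein pseudogenes moved in both directions. Of 276 such rows 56 were tested, of which 17 rose, 13 fell and 26 did not pass, beside 31.2% of all genes that rose and 48.9% that fell. Their log2 fold changes ranged from -2.32 to 1.84 around a median of 0.08. The RPKM of all near-identical copies together came to 28.2% to 32.3% of the members' summed RPKM over the 6 libraries.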
